A study of Mus musculus with 24 samples.

Results

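In bone marrow RNA-seq of flight and ground mice, 9 genes of the integrated stress response were examined: Eif2ak1, which encodes the haem-regulated kinase HRI, Atf4, Ddit3, Ppp1r15a, Trib3, Chac1, Asns, Slc7a5 and Slc3a2. They were chosen by symbol, as the haem-regulated kinase, the transcription factor ATF4 and known targets of ATF4. Earlier results of these data were known when they were chosen, so their counts beside those of all genes are descriptive. Slc7a5 was added because its level was seen to fall in these data, so its values are given as a description with no test. Trib3 passed the filter on low values through 1 library of the group where it was highest, which makes a test of it void, so it too is given by its values only. Counts of tested members refer to the other 7. The 9 symbols corresponded to 10 of the 54752 rows of the table, because Ddit3 has a second row (ENSMUSG00000116429.1) for a separately annotated stretch inside the gene. That row was at 0 in all 24 libraries and was not tested.

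Cells respond to lack of haem, lack of amino acids, misfolded proteins in the endoplasmic reticulum and viral RNA with a set of kinases that phosphorylate the translation factor eIF2. HRI is the kinase that responds to low haem, is abundant in erythroid precursors and holds globin synthesis to the haem that is at hand. Phosphorylated eIF2 lowers general translation while the Atf4 mRNA is translated more, and ATF4 then raises genes for amino acid uptake and synthesis, redox balance and the feedback that removes the phosphate from eIF2. Much of this control acts on translation and phosphorylation, which RNA levels do not measure.

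ATF4 binds with C/EBP partners to the C/EBP-ATF response element, so the promoters of the members were searched for its 8 letters TGATGNAA on both strands. Windows from 250 bases before to 50 bases after the start of the gene were taken from RefSeq (GRCm38.p6) and matched 8 of the 9 symbols, all except Slc7a5. Of these 8, Chac1, Asns and Trib3 held the element, against 4.51% of the 27025 genes with a window (3.97% of all 32851 windows). The 30 bases around each match are shown because these 3 enzyme or regulator genes are set beside members without a match below, with the element in capitals and each strand read in the direction of the gene.
Chac1: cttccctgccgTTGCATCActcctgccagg
Asns: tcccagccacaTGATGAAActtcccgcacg
Trib3: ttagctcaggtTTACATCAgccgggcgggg
Distances are counted from the RefSeq start, which differs from the outermost start in GENCODE M21, the annotation of the gene spans given further on. The Chac1 stretch is chr2:119351038-119351067 on the plus strand, 193 bases upstream of the start, with the element on the opposite strand. The Asns stretch is chr6:7693214-7693243 on the minus strand, 23 bases upstream of the RefSeq start, and it lies inside the GENCODE span. The Trib3 stretch is chr2:152344028-152344057 on the minus strand, with the element 15 bases after the RefSeq start, just outside the GENCODE span, and on the opposite strand. No match was found in the windows of Eif2ak1, Atf4, Ddit3, Ppp1r15a and Slc3a2. A match describes the letters only.

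Male C57BL/6 mice of the MHU-3 project were wild type (WT) or lacked Nrf2 (Nrf2 KO). Flight mice (FL) were 8 weeks old when they were transported to the launch site and stayed in space for 31 days, and bone marrow was collected 2 days after landing. Ground control mice (GC) were kept in Japan, whereas flight mice were processed in the United States, so flight and the place of processing cannot be told apart. Each of the 4 groups (FL-WT and GC-WT, FL-KO and GC-KO) had 6 mice, with 1 library per mouse from cells of the right pelvis and tibia that had been cryopreserved in CELLBANKER2. The marrow was not sorted, so fewer cells of a type and less RNA per cell cannot be told apart.

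Values are TPM, which are set per length of transcript and scaled to the same sum in each library, and the number of reads behind them is unknown. Nfe2l2, the gene of Nrf2, was at 17.1 to 26.1 TPM in GC-WT mice and 3.60 to 7.18 TPM in GC-KO mice, and at 11.4 to 27.3 TPM in FL-WT mice and 2.22 to 4.31 TPM in FL-KO mice. Tests were made with limma over 12373 genes on the log2(TPM + 1) scale. A DEG was a gene that differed at least 2-fold on this scale at an adjusted p under 0.1 (Benjamini-Hochberg). The bulk of genes lay below 0 in all 4 comparisons, with medians over all tested genes of -0.24 (WT mice) and -0.29 (Nrf2-KO mice) for flight, and of -0.22 (ground) and -0.25 (flight) for Nrf2 KO, while 5 small RNAs held 35.4% to 59.6% of TPM. Median-of-ratios scaling between libraries brought these medians to between -0.0094 and 0.044, so members are also given after this scaling.

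Per length, the feedback phosphatase subunit Ppp1r15a and Atf4 were the most abundant members and Chac1 and Trib3 the least abundant in all 4 groups. In GC-WT mice, the mean levels were 58.7 ± 16.7 TPM for Ppp1r15a, 44.5 ± 6.51 TPM for Atf4, 32.8 ± 6.91 TPM for Slc3a2, 23.5 ± 5.94 TPM for Slc7a5, 21.9 ± 4.59 TPM for Eif2ak1, 11.2 ± 2.40 TPM for Asns and 8.13 ± 1.56 TPM for Ddit3 (SD, n = 6 each). Chac1 was at 2.0 ± 0.406 TPM and Trib3 at 0.485 ± 0.341 TPM (SD, n = 6). The ranges of neighbours in this order overlapped except between Eif2ak1 and Asns, Ddit3 and Chac1, and Chac1 and Trib3. In FL-KO mice, Slc7a5 had moved from the fourth to the seventh place, at 3.36 ± 0.809 TPM (SD, n = 6), below Asns and Ddit3.

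**Figure D1:**
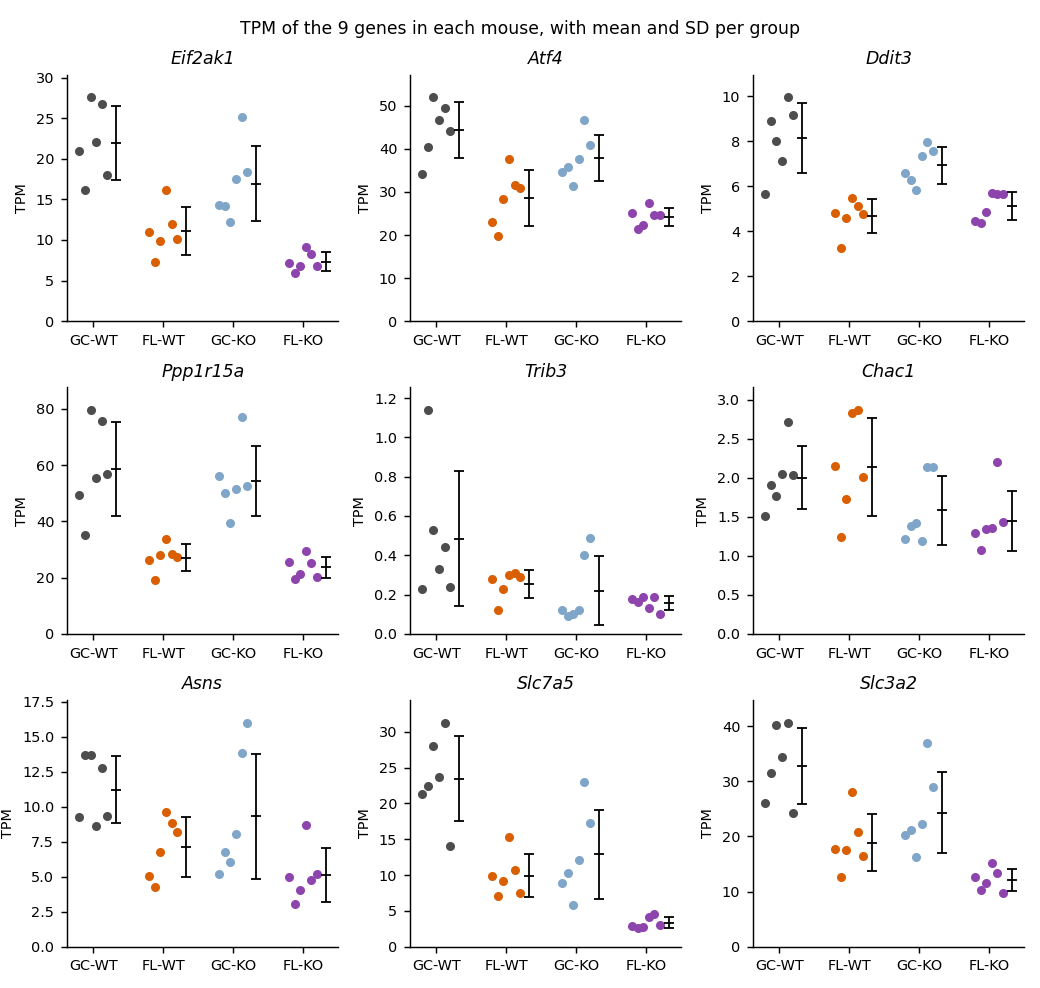
TPM of the 9 genes (y axes, from 0) in the 4 groups (x axes). Each point is a mouse, and the bar beside the points is the mean with its SD (n = 6). In the panels of Ppp1r15a and Ddit3 all flight mice lie below all ground mice of the same genotype, whereas the points of Chac1 and Trib3 overlap.

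Flight went with lower levels of 6 of the 7 tested members in WT mice and of 6 of 7 in Nrf2-KO mice, at an adjusted p under 0.1 with no minimum fold change. In both genotypes these were Eif2ak1, Atf4, Ddit3, Ppp1r15a, Asns and Slc3a2, and the other was Chac1. The background was high: 39% of all tested genes were lower by this rule in WT mice and 53.1% in Nrf2-KO mice. None of the 7 was higher by it, against 0.994% and 0.299% of all tested genes. As DEGs, 1 of 7 was lower in WT mice (Ppp1r15a), against 0.938% of all tested genes, and 2 of 7 were lower in Nrf2-KO mice (Ppp1r15a and Eif2ak1), against 2.13%. Without 1 mouse, the count in WT mice was 0 (GC-WT mouse 6 or 8 or FL-WT mouse 5 left out) or 2 (GC-WT mouse 5 or FL-WT mouse 7 left out), and that in Nrf2-KO mice was 1 with GC-KO mouse 11 left out and 3 with GC-KO mouse 4 left out. In 2 of 7 in WT mice (Ppp1r15a and Ddit3), all flight mice lay under the lowest ground mouse, against 4.19% of all tested genes. In Nrf2-KO mice, 5 of 7 separated in this way (Eif2ak1, Atf4, Ddit3, Ppp1r15a and Slc3a2), against 18.4%. The median log2 fold change of the 7 was -0.68 in WT mice and -0.70 in Nrf2-KO mice, and after median-of-ratios scaling it was -0.38 and -0.33. After this scaling, 5 of 7 in WT mice and 4 of 7 in Nrf2-KO mice were lower at an adjusted p under 0.1, against 15.9% and 21.6% of all genes, and Chac1 was higher in each, against 17.4% and 18.1%.

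**Figure D2:**
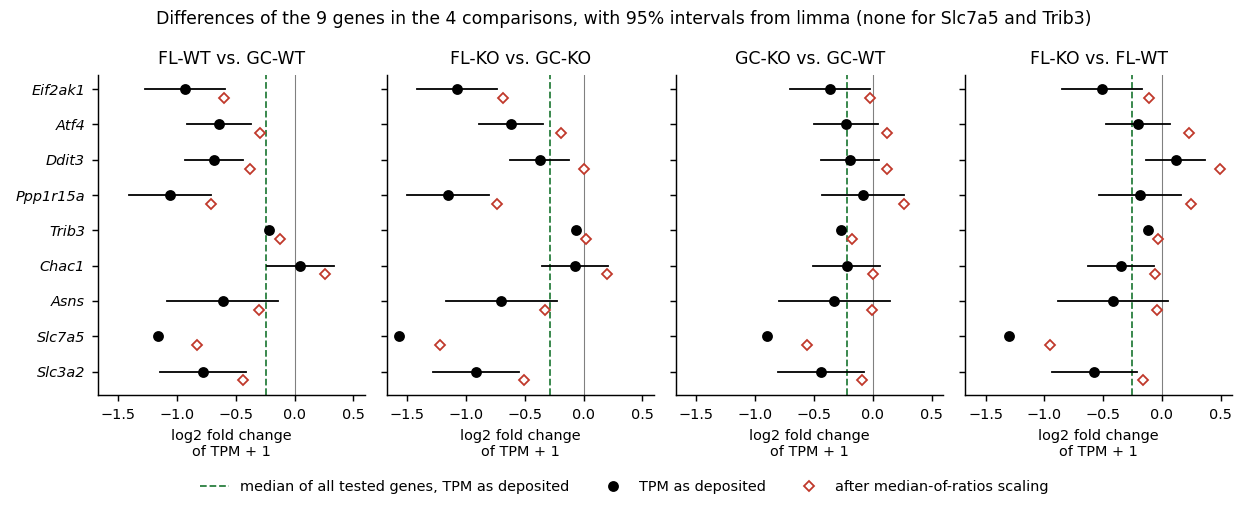
Log2 fold changes of TPM + 1 (x axes) of the 9 genes in the 4 comparisons. Black points with 95% limma intervals show TPM as deposited (no interval is given for Slc7a5 and Trib3), open red diamonds show values after median-of-ratios scaling, and the dashed line is the median of all tested genes. In both flight comparisons the black points of Chac1 and Trib3 lie right of the dashed line, and those of the other members lie left of it. The 1 added to TPM makes the fold changes of Trib3, a gene of low level, smaller than its TPM ratios.

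Eif2ak1, the haem-regulated kinase (ENSMUSG00000029613.15, chr5:143817788-143904251, plus strand), was lower in flight in both genotypes. It was at 16.2 to 27.6 TPM in GC-WT mice with a median of 21.6 TPM, and at 7.32 to 16.2 TPM in FL-WT mice with a median of 10.6 TPM. All FL-WT mice except mouse 7 lay below the lowest GC-WT mouse. The level was 1.91-fold lower in FL-WT mice, with a log2 fold change of -0.93 ± 0.17 (SE; limma adjusted p = 0.000328). In mice without Nrf2, Eif2ak1 was at 12.2 to 25.2 TPM on the ground (median 15.9 TPM) and at 5.93 to 9.15 TPM in flight (median 6.99 TPM), and the groups did not overlap. There, the log2 fold change was -1.08 ± 0.17 (SE; limma adjusted p = 4.6e-05). After median-of-ratios scaling, the log2 fold changes were -0.60 in WT and -0.69 in Nrf2-KO mice, with adjusted p = 0.000111 and 2.72e-05. Aimp2 and Ankrd61 overlap Eif2ak1 on the other strand, and without strand in the counting, which the sources do not state, reads of such pairs cannot be told apart.

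Atf4, the transcription factor of the response (ENSMUSG00000042406.8, chr15:80255184-80257541, plus strand), was also lower in flight, with smaller log2 fold changes than Eif2ak1, a difference that was not tested. It was at 34.1 to 52.1 TPM in GC-WT mice (median 45.5 TPM) and at 19.7 to 37.7 TPM in FL-WT mice (median 29.7 TPM). Among Nrf2-KO mice, it was at 31.3 to 46.8 TPM on the ground (median 36.8 TPM) and at 21.5 to 27.4 TPM in flight (median 24.6 TPM). The ranges overlapped through 1 flight mouse, mouse 7, in WT mice, and did not overlap in Nrf2-KO mice. Its log2 fold changes were -0.64 ± 0.13 in WT mice and -0.61 ± 0.13 in Nrf2-KO mice (SE; limma adjusted p = 0.00135 and 0.00115), and -0.30 and -0.19 after median-of-ratios scaling (adjusted p = 0.00405 and 0.0425). Set per Atf4 in the same mouse, Eif2ak1 was at 0.494 ± 0.0838 in GC-WT and 0.389 ± 0.0553 in FL-WT mice, and in Nrf2-KO mice at 0.441 ± 0.0558 (GC) and 0.302 ± 0.0274 (FL) (SD, n = 6). These ratios do not depend on the scaling between libraries.

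Ppp1r15a, or GADD34, directs a phosphatase to eIF2 and so ends the response (ENSMUSG00000040435.12, chr7:45522916-45526268, minus strand). Its log2 fold change was the largest of the 7 tested members in both flight comparisons. It was at 35.0 to 79.7 TPM in GC-WT mice (median 56.2 TPM) and at 19.0 to 33.7 TPM in FL-WT mice (median 27.6 TPM). In Nrf2-KO mice, it was at 39.3 to 77.0 TPM on the ground (median 52.1 TPM) and at 19.7 to 29.6 TPM in flight (median 23.3 TPM). No flight mouse reached the lowest ground mouse of its genotype. On the log2 scale the fold changes were -1.06 ± 0.17 and -1.16 ± 0.17 (SE; limma adjusted p = 0.000129 and 3.33e-05), or 2.08-fold and 2.23-fold lower. After median-of-ratios scaling they were -0.71 and -0.73 (adjusted p = 0.000565 and 0.000332), under the 2-fold threshold. Tulp2 overlaps the gene on the other strand.

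Ddit3, or CHOP, the transcription factor target tied to cell death in prolonged stress (ENSMUSG00000025408.15, chr10:127290774-127296288, plus strand), did not overlap between flight and ground mice in either genotype. It was at 5.67 to 9.97 TPM in GC-WT mice (median 8.46 TPM) and at 3.25 to 5.46 TPM in FL-WT mice (median 4.76 TPM). Without Nrf2, it was at 5.81 to 7.95 TPM on the ground (median 6.97 TPM) and at 4.36 to 5.70 TPM in flight (median 5.25 TPM). The log2 fold change was -0.68 ± 0.12 in WT mice (SE; limma adjusted p = 0.000334), and -0.38 after median-of-ratios scaling (adjusted p = 0.00145). In Nrf2-KO mice it was smaller in size, -0.37 ± 0.12 (SE; limma adjusted p = 0.0174), and it turned to 0.00010 after this scaling and to 0.025 after quantile normalization. The difference between the genotypes in the response to flight was 0.31 on the log2 scale, with a 95% interval of -0.04 to 0.66, and did not pass (limma adjusted p = 1). Mars, for the methionyl-tRNA synthetase, overlaps Ddit3 on the other strand.

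The 3 members that held the element differed in their values. Asns, asparagine synthetase (ENSMUSG00000029752.12, chr6:7675169-7693254, minus strand), was at 8.63 to 13.7 TPM in GC-WT mice (median 11.1 TPM) and at 4.24 to 9.65 TPM in FL-WT mice (median 7.50 TPM). In Nrf2-KO mice, Asns was at 5.20 to 16 TPM on the ground (median 7.38 TPM) and at 3.02 to 8.71 TPM in flight (median 4.86 TPM). In each genotype, 4 of 6 flight mice were below the lowest ground mouse. The log2 fold changes of Asns were -0.61 ± 0.23 in WT mice and -0.70 ± 0.23 in Nrf2-KO mice (SE; limma adjusted p = 0.0467 and 0.0187), and the call in WT mice was lost without GC-WT mouse 6 or FL-WT mouse 3 or 5 (-0.50 to -0.56). After median-of-ratios scaling they were -0.30 and -0.33 and did not pass (adjusted p = 0.202 and 0.144).

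Chac1, which breaks down glutathione (ENSMUSG00000027313.3, chr2:119351229-119354381, plus strand), was at 1.51 to 2.72 TPM in GC-WT mice (median 1.98 TPM) and at 1.24 to 2.87 TPM in FL-WT mice (median 2.08 TPM). It was at 1.19 to 2.14 TPM in GC-KO mice (median 1.40 TPM) and at 1.08 to 2.20 TPM in FL-KO mice (median 1.35 TPM). The ranges of ground and flight mice overlapped over most of their width. Flight gave a log2 fold change of 0.05 with a 95% interval of -0.23 to 0.33 in WT mice and of -0.07 with an interval of -0.35 to 0.21 in Nrf2-KO mice (limma adjusted p = 0.794 and 0.667). After median-of-ratios scaling Chac1 was higher in flight, by 0.26 and 0.20 (adjusted p = 0.019 and 0.0577). Per Atf4 in the same mouse, Chac1 was at 0.0451 ± 0.00677 in GC-WT and at 0.0746 ± 0.0143 in FL-WT mice (SD, n = 6, no test), and these ranges did not overlap. In Nrf2-KO mice the ratio was 0.0414 ± 0.00766 on the ground and 0.0598 ± 0.0151 in flight (SD, n = 6, no test), and the ranges overlapped. Atf4, the divisor, was lower in flight in both genotypes, and how often other genes separate the groups in this ratio was not counted.

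Trib3, a pseudokinase that restrains ATF4 (ENSMUSG00000032715.9, chr2:152337422-152344032, minus strand), was near the lower end of what was measured. It passed the filter only through GC-WT mouse 5, at 1.14 TPM, the only library above 1 TPM. The other GC-WT mice were at 0.23 to 0.53 TPM, and FL-WT mice were at 0.12 to 0.31 TPM. It was at 0.09 to 0.49 TPM in GC-KO mice and at 0.1 to 0.19 TPM in FL-KO mice. In flight, its log2 fold changes, given with no test, were -0.22 in WT and -0.06 in Nrf2-KO mice, and -0.12 and 0.022 after median-of-ratios scaling. The 1 added to TPM shrinks these values at such low levels. In TPM, the flight mean of Trib3 was 0.526 of the ground mean in WT mice and 0.72 in Nrf2-KO mice. The GC-WT mean includes mouse 5. All 6 FL-WT and all 6 FL-KO mice lay within or below the range of the ground mice of their genotype.

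Slc3a2 and Slc7a5 encode the heavy chain, 4F2hc or CD98, and the light chain, LAT1, of a transporter that brings leucine and other large neutral amino acids into cells. Slc3a2 (ENSMUSG00000010095.13, chr19:8706882-8723369, minus strand) was at 24.2 to 40.6 TPM in GC-WT mice (median 33.0 TPM) and at 12.6 to 28.01 TPM in FL-WT mice (median 17.6 TPM). On the KO background, it was at 16.3 to 36.8 TPM on the ground (median 21.8 TPM) and at 9.79 to 15.2 TPM in flight (median 12.1 TPM), and these ranges did not overlap. For Slc3a2 the log2 fold changes were -0.78 ± 0.18 and -0.91 ± 0.18 (SE; limma adjusted p = 0.00286 and 0.000466), and -0.44 and -0.50 after median-of-ratios scaling (adjusted p = 0.00405 and 0.00126). Slc3a2 also serves other light chains and integrins.

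Slc7a5 (ENSMUSG00000040010.10, chr8:121881150-121907694, minus strand), the member chosen for its fall, was at 14.1 to 31.3 TPM in GC-WT mice (median 23.0 TPM) and at 7.11 to 15.3 TPM in FL-WT mice (median 9.47 TPM). In Nrf2-KO mice, Slc7a5 was at 5.83 to 23.0 TPM on the ground (median 11.2 TPM) and at 2.64 to 4.62 TPM in flight (median 3.0 TPM). All FL-KO mice were below all mice of the 3 other groups, and FL-WT and GC-KO mice overlapped. For flight, its log2 fold changes were -1.16 in WT and -1.57 in Nrf2-KO mice, or -0.83 and -1.22 after median-of-ratios scaling. For Nrf2 KO they were -0.90 on the ground and -1.30 in flight, or -0.56 and -0.95 after this scaling. In TPM, the mean in FL-KO mice was 0.261 of that in GC-KO mice. The light chain per heavy chain was at 0.711 ± 0.0814 in GC-WT and 0.525 ± 0.0398 in FL-WT mice, and in Nrf2-KO mice at 0.507 ± 0.101 (GC) and 0.277 ± 0.0449 (FL) (SD, n = 6). The ratio in the FL-KO mice, at most 0.345, lay below that in every other mouse, of which the lowest was at 0.358. As Slc7a5 was chosen for its fall in these data, its separations between groups are a description only. Gm20388 overlaps Slc7a5 on the other strand.

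**Figure D3:**
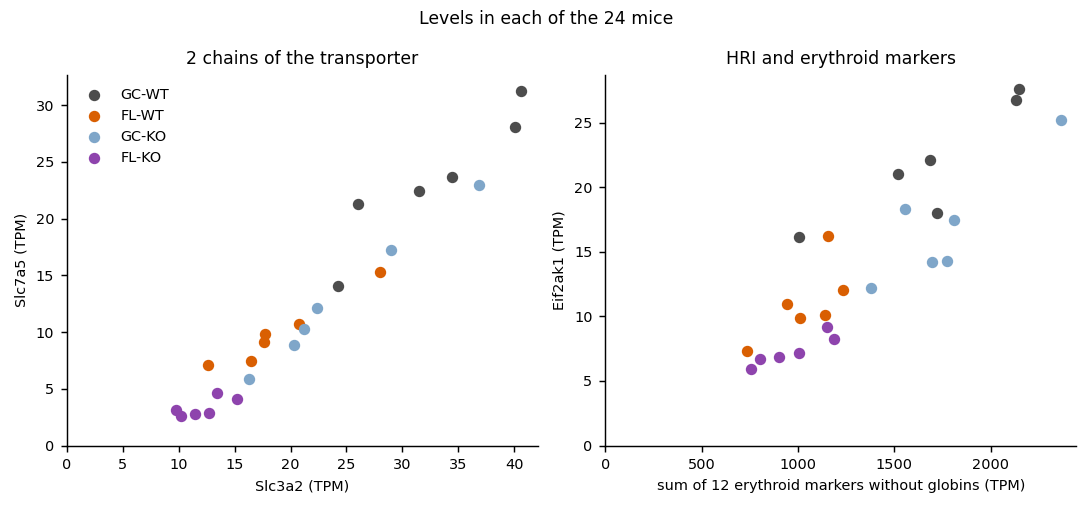
Left, TPM of Slc7a5 (y axis) against Slc3a2 (x axis) in each of the 24 mice, coloured by group. Right, TPM of Eif2ak1 (y axis) against the summed TPM of 12 erythroid markers without the globin genes (x axis). FL-KO mice lie lowest for Slc7a5 but overlap with FL-WT mice for Slc3a2. For Eif2ak1 and these 12 erythroid markers, flight mice lie to the lower left of ground mice, with overlap in WT mice. The globin genes were left out after the values were seen, and the sum of all 14 erythroid markers overlapped between flight and ground mice.

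Fewer members passed in the comparisons of genotypes. In GC-KO vs. GC-WT, 2 of 7 were lower at an adjusted p under 0.1 (Eif2ak1 and Slc3a2), against 42.9% of all tested genes, and 0 of 7 were DEGs, against 3.04% of all tested genes. Their log2 fold changes on TPM as deposited were -0.37 ± 0.17 for Eif2ak1 and -0.44 ± 0.18 for Slc3a2 (SE; limma adjusted p = 0.0811 and 0.0507). After median-of-ratios scaling they were at -0.03 and -0.09 (adjusted p = 0.823 and 0.467), and 0 of 7 were lower, against 27.9% of all tested genes. Ppp1r15a turned from -0.08 to 0.27 (adjusted p = 0.0955) and was the only member higher after this scaling, against 29.8%. These calls were lost without some single mice: that of Eif2ak1 without GC-WT mouse 6, 7 or 8 or GC-KO mouse 1, 2 or 4 (log2 fold changes of -0.29 to -0.36), and that of Slc3a2 without GC-WT mouse 6 or 8 or GC-KO mouse 1 or 4 (-0.34 to -0.40). No member separated the groups, against 9.15% of all tested genes.

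In FL-KO vs. FL-WT, 3 of 7 were lower at an adjusted p under 0.1 (Eif2ak1, Slc3a2 and Chac1), against 47.2% of all tested genes, and 0 of 7 were DEGs, against 8.36%. The log2 fold changes on TPM as deposited were -0.51 ± 0.17 for Eif2ak1, -0.57 ± 0.18 for Slc3a2 and -0.35 ± 0.14 for Chac1 (SE; limma adjusted p = 0.013, 0.0098 and 0.0433), and Chac1 turned to 0.0050 after quantile normalization and to 0.31 after removal of the GC content and length trend. The call of Chac1 was lost without FL-WT mouse 7 or 8 or FL-KO mouse 2 (-0.28 to -0.30). None of the 7 passed as lower after median-of-ratios scaling, where 31.2% of all genes did, and none separated the groups on TPM as deposited, against 20.6% of all tested genes. Ddit3, at 0.12 on TPM as deposited (limma adjusted p = 0.477), was higher after this scaling by 0.50 (adjusted p = 1.69e-05), and Atf4 turned from -0.20 to 0.23 (adjusted p = 0.00807). These 2 of 7 stand beside 35.2% of all genes that were higher after scaling. The genotype comparisons share mice with the flight comparisons.

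No tested member passed a test of the interaction of flight and genotype (limma adjusted p = 1 for each of the 7), where 0.0162% of all genes passed as lower. At an unadjusted p under 0.05, 0 of 7 passed, against 3.03% of all genes as lower and 0.428% as higher. The 95% intervals of the difference in log2 fold change ran from -0.63 to 0.33 for Eif2ak1, from -0.36 to 0.41 for Atf4, from -0.59 to 0.39 for Ppp1r15a and from -0.65 to 0.38 for Slc3a2. They ran from -0.75 to 0.58 for Asns and from -0.52 to 0.28 for Chac1.

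The rest of the pathway was described with lists of its other genes. Their flight counts stand beside the shares of all tested genes, 39% lower in WT and 53.1% in Nrf2-KO mice, 0.938% and 2.13% lower as DEGs, and, after median-of-ratios scaling, 15.9% and 21.6% lower and 17.4% and 18.1% higher. Of 7 other eIF2 kinase genes and activators, 4 were lower in flight in WT mice and 5 in Nrf2-KO mice at an adjusted p under 0.1, with medians of -0.33 and -0.37, and 2 were lower and 1 was higher in each after median-of-ratios scaling. Among them, Dele1, which carries mitochondrial stress to HRI, fell from 6.21 to 4.08 TPM in WT and from 4.17 to 2.13 TPM in Nrf2-KO mice (limma adjusted p = 0.0104 and 0.000744). Eif2ak2, the kinase PKR that senses double-stranded RNA, fell from 4.64 to 2.71 TPM and from 4.15 to 2.99 TPM (limma adjusted p = 0.00117 and 0.0233), and after median-of-ratios scaling its log2 fold change was -0.34 in WT mice and, with the call lost, -0.028 in Nrf2-KO mice (adjusted p = 0.00422 and 0.822). Gcn1, which activates the amino acid-sensing kinase GCN2, was a DEG in FL-KO vs. FL-WT with a log2 fold change of -1.14 (limma adjusted p = 7.7e-06). These 3 genes were named after their values were seen. Of 9 genes of eIF2, eIF2B and the constant phosphatase subunit Ppp1r15b, 1 was lower in WT mice and 4 in Nrf2-KO mice in flight, with medians of -0.23 and -0.22 beside all-gene medians of -0.24 and -0.29, and after median-of-ratios scaling 0 and 1 were lower and 0 and 4 were higher. In WT mice, Ppp1r15b fell from 32.4 ± 3.68 to 24.1 ± 5.15 TPM in flight (SD, n = 6), with a log2 fold change of -0.43 (limma adjusted p = 0.0182), a call that was lost after median-of-ratios scaling (-0.093, adjusted p = 0.273).

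Other ATF4 targets had medians and counts near those of all genes. Of 24, 17 passed the filter, of which 6 were lower in flight in WT mice and 10 in Nrf2-KO mice, against 39% and 53.1% of all tested genes, and none was a DEG, with medians of -0.28 and -0.34. After median-of-ratios scaling, 2 and 3 of them were lower and 5 and 4 were higher. The 6 and 10 include Atf3, whose mean was under 1 TPM in every group. It was at 0.937 TPM in GC-WT, 0.612 TPM in FL-WT, 0.775 TPM in GC-KO and 0.467 TPM in FL-KO mice. Its calls thus rest on values near the filter. Pck2, the mitochondrial phosphoenolpyruvate carboxykinase, fell from 10.3 ± 1.38 to 6.57 ± 1.99 TPM in WT and from 8.30 ± 2.14 to 3.69 ± 0.752 TPM in Nrf2-KO mice (SD, n = 6; limma adjusted p = 0.00693 and 8.58e-05). Phgdh, which opens serine synthesis, had means of 12.4 ± 2.0 (GC-WT) and 14.3 ± 4.51 TPM (FL-WT; SD, n = 6; limma adjusted p = 0.48 on TPM as deposited). After median-of-ratios scaling it was higher in FL-WT mice, by 0.47 (adjusted p = 0.00318). In FL-KO vs. FL-WT, 3 of 17 were DEGs, against 8.36% of all tested genes, namely Phgdh, the mitochondrial serine hydroxymethyltransferase Shmt2 and the transcription factor Cebpb, with log2 fold changes of -1.18, -1.18 and -1.25 (limma adjusted p = 3.86e-06, 0.000111 and 0.000398). The element was found in the windows of 6 of the 21 targets with a window, or 28.6%.

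Several of the other amino acid transporters were DEGs. Of 15 tested, 10 were lower in flight in WT mice and 12 in Nrf2-KO mice, and 5 were DEGs in each, with medians of -0.43 and -0.52. Slc6a9, the glycine transporter that supplies haem synthesis, fell from 21.6 ± 6.44 to 7.91 ± 1.5 TPM in WT and from 15.1 ± 4.47 to 4.76 ± 1.03 TPM in Nrf2-KO mice (SD, n = 6; limma adjusted p = 4.46e-05 and 1.45e-05). Slc43a1, another carrier of large neutral amino acids, had log2 fold changes of -1.22 and -1.28, and the glutamine carrier Slc1a5 had -1.14 and -1.21 (limma adjusted p at most 5.09e-05). The other DEGs in both comparisons were Slc38a5 and Slc16a10. The cystine carrier Slc7a11, a known target of Nrf2 and ATF4, went the other way: it rose from 1.12 to 1.74 TPM in WT and from 0.763 to 1.40 TPM in Nrf2-KO mice (limma adjusted p = 0.0345 and 0.0113), and it was named after its values were seen. After median-of-ratios scaling, 6 and 7 transporters were lower and Slc7a11 was higher in each.

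Of 20 aminoacyl-tRNA synthetases, 12 were lower in flight in WT mice and 17 in Nrf2-KO mice, with medians of -0.37 and -0.47, and 4 and 7 were lower and 2 and 2 higher after median-of-ratios scaling. In the genotype comparisons 18 of 20 were lower in each, against 42.9% and 47.2% of all tested genes, with medians of -0.49 and -0.62, and 11 and 13 were lower and 1 was higher in each after this scaling. Vars, the valyl-tRNA synthetase, was at 21.7 ± 4.14 TPM in GC-WT, 10.5 ± 2.83 TPM in GC-KO, 13.7 ± 5.11 TPM in FL-WT and 3.93 ± 0.816 TPM in FL-KO mice (SD, n = 6). Aars, the alanyl-tRNA synthetase, had a log2 fold change of -1.01 in FL-KO vs. FL-WT (limma adjusted p = 5.39e-05). Of 11 chaperones and targets of XBP1 or ATF6 in the endoplasmic reticulum, 1 was lower in flight in WT mice (Herpud1, log2 fold change -0.52, limma adjusted p = 0.00648, but -0.18 with adjusted p = 0.177 after median-of-ratios scaling) and 3 in Nrf2-KO mice, with medians of -0.04 and -0.21. After median-of-ratios scaling, 8 and 7 of these 11 were higher, and 0 were lower.

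Enzymes of the synthesis of haem, which HRI senses, had the lowest medians of these lists in the flight comparisons. Of 8, 7 were lower in WT mice and 8 in Nrf2-KO mice, with medians of -0.98 and -1.03, and 3 and 5 were DEGs. After median-of-ratios scaling, 7 were lower in each. Cpox, the mitochondrial coproporphyrinogen oxidase, fell from 52.9 ± 14.4 to 23.5 ± 6.61 TPM in WT and from 42.2 ± 11.7 to 14.8 ± 4.33 TPM in Nrf2-KO mice (SD, n = 6; limma adjusted p = 0.000346 and 2.4e-05). Alas2, the first and rate-limiting enzyme in erythroid cells, had log2 fold changes of -0.18 and -0.47 (limma adjusted p = 0.45 and 0.0428), and after median-of-ratios scaling it was at 0.17 and -0.03, passing in neither (adjusted p = 0.49 and 0.914).

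**Figure D4:**
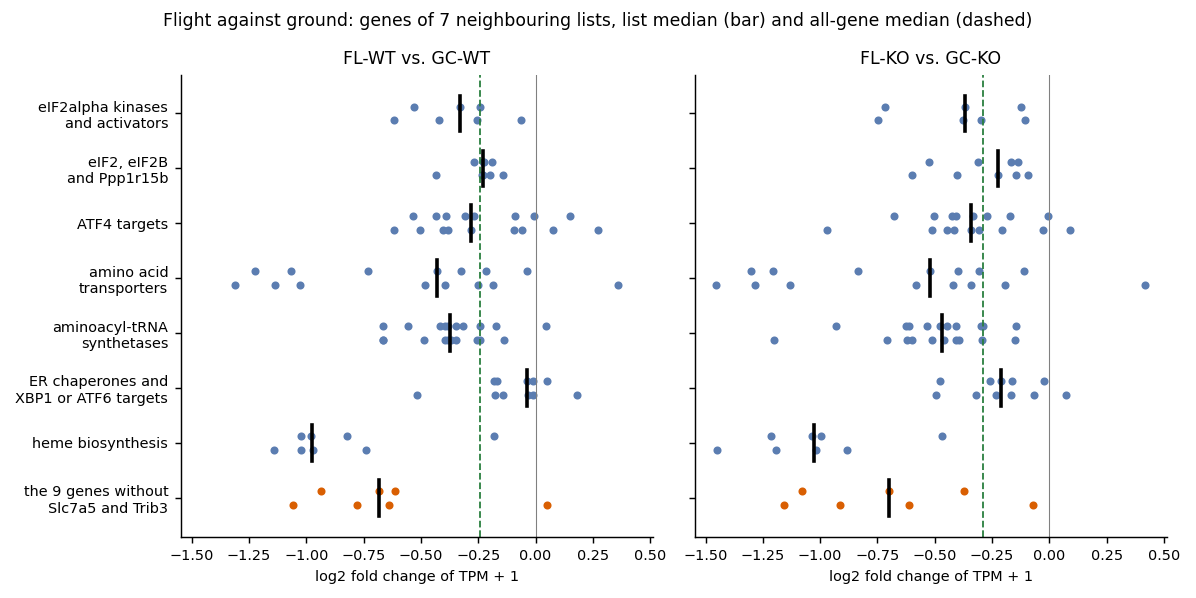
Log2 fold changes of TPM + 1 (x axes) of single genes (points) in 7 lists and of the 7 tested members, in WT mice (left) and Nrf2-KO mice (right). Black bars are list medians and the dashed line is the median of all tested genes. The haem biosynthesis genes lie furthest left, at medians of -0.98 and -1.03, the members come next at -0.68 and -0.70, and the endoplasmic reticulum list lies right of the dashed line, at -0.04 and -0.21.

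Most erythroid markers were also lower in flight. Of 14, 11 were lower in flight in WT mice and 12 in Nrf2-KO mice, against 39% and 53.1% of all tested genes. Their medians were -1.03 and -1.17. After median-of-ratios scaling 11 were lower in each, against 15.9% and 21.6%, and 2 were higher in WT mice, against 17.4%. The summed TPM of all 14 overlapped between groups, at 29601 to 64038 in GC-WT and 44020 to 65320 in FL-WT mice, and at 53763 to 78320 in GC-KO and 45845 to 68278 in FL-KO mice, and the 2 globin markers held most of it. Without the globins, a split made after the values were seen, the 12 others summed to 1004 to 2149 TPM in GC-WT and 736 to 1235 TPM in FL-WT mice, and to 1382 to 2363 TPM in GC-KO and 756 to 1188 TPM in FL-KO mice. None of the markers was at 0. Their part in the falls of Eif2ak1, Ppp1r15a, Atf4 and the transporters was not tested. By flow cytometry of thawed marrow, the paper reports a higher frequency of early erythroid progenitors in both flight groups. That measure counts cells, not RNA, and left out more mature erythroid cells, which survived cryopreservation very poorly. Within Nrf2-KO mice on the ground, GC-KO mouse 11 was highest for Eif2ak1, Atf4, Ddit3, Ppp1r15a, Slc7a5 and Slc3a2 and for the marker sum without the globins. This mouse was also highest for Nfe2l2, at 7.18 TPM, and shared the highest value of Chac1, 2.14 TPM, with mouse 12. What set it apart was not tested. Without GC-KO mouse 11, 1 of 7 members was a lower DEG in FL-KO vs. GC-KO.

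Markers of other cell types were counted beside the same shares of all tested genes in WT and Nrf2-KO mice. These were 39% and 53.1% lower and 0.994% and 0.299% higher. After median-of-ratios scaling they were 15.9% and 21.6% lower and 17.4% and 18.1% higher. The lists are short, and a count near its share is not read as a change of that cell type. B progenitor markers were lower in 10 of 10 in each flight comparison (medians -0.87 and -0.80) and in 8 and 7 after median-of-ratios scaling, and their sums were 221 to 318 TPM in GC-WT and 99.6 to 257 TPM in FL-WT mice, and 142 to 214 TPM in GC-KO and 79.8 to 132 TPM in FL-KO mice. Megakaryocyte markers were lower in 5 and 7 of 7 (2 and 5 after this scaling), with sums of 91.5 to 301 TPM in GC-WT and 46.3 to 160 TPM in FL-WT mice. Stromal and endothelial markers were lower in 5 of 5 in each (2 and 1 after this scaling), and plasma cell markers in 4 of 5 tested in each (1 and 2 after this scaling). Neutrophil markers were higher in flight in 5 of 12 in WT mice and lower in 3 of 12 in Nrf2-KO mice, and after median-of-ratios scaling 0 and 2 were lower and 8 were higher in each, and their sums were 29063 to 54094 TPM in GC-WT and 43175 to 59853 TPM in FL-WT mice. Of monocyte and macrophage markers 0 and 3 of 8 were lower, of T and NK cell markers 0 and 1 of 7, and of stem and progenitor markers 1 and 2 of 5. All of these counts lie under the shares of all tested genes. After this scaling, 3 and 2 monocyte and macrophage markers and 5 and 4 T and NK cell markers were higher, while 0 and 1 of the former, 0 of the latter, and 0 and 1 stem and progenitor markers were lower. None of these markers was at 0 in every library, and their part in the members' differences was not tested.

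On TPM as deposited, FL-WT mouse 5 was the lowest of its group for every member and for Nfe2l2. FL-WT mouse 7 was the highest for every member except Chac1 and Trib3. Scaling between libraries takes out shifts that the genes of a library share. With such shifts taken out, the members did not move as a block within groups. After median-of-ratios scaling and removal of the group means, Pearson's r between members over the 24 libraries ran from -0.41 to 0.80 with a median of 0.17 over 36 pairs. The points share libraries and base composition, so these values describe the data. The highest values were for Slc3a2 and Slc7a5 at 0.80, Eif2ak1 and Ppp1r15a at 0.75, Eif2ak1 and Slc3a2 at 0.73, and Eif2ak1 and Slc7a5 at 0.69. Atf4 had 0.57 with Ppp1r15a, 0.11 with Asns, -0.09 with Slc7a5 and -0.27 with Chac1. Trib3 and Ppp1r15a had the lowest value, -0.41, but their Spearman's rho was -0.04. Trib3 was above 1 TPM in 1 library only.

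Among the 5025 genes whose mean was 5 TPM or more, those most like each member in the same measure were listed. For Eif2ak1 they were Slc4a1, the band 3 anion exchanger of red cells (r = 0.89, rho = 0.84), E2f2 (0.87 and 0.80) and Ranbp10 (0.86 and 0.81). For Ppp1r15a they were Gclm, the modifier subunit of glutathione synthesis (r = 0.94, rho = 0.88), Dhrs11 (0.93 and 0.88) and Tmod1 (0.91 and 0.87). For Slc7a5 they were Tpcn1 (r = 0.88, rho = 0.76), Nucb1 (0.86 and 0.75) and Atg9a (0.86 and 0.76), and for Slc3a2 Clptm1 (0.84 and 0.78), Pld3 (0.83 and 0.78) and Atp6ap1 (0.81 and 0.70). Asns was most like Gars, the glycyl-tRNA synthetase (r = 0.76, rho = 0.69), Ilk (0.74 and 0.69) and Ywhae (0.74 and 0.70). Chac1 was most like Lfng (r = 0.82, rho = 0.71), Pfkfb4 (0.80 and 0.76) and Riox1 (0.77 and 0.77). Atf4 was most like Snhg3 (r = 0.75, rho = 0.62), Pla2g12a (0.74 and 0.44) and Rfesd (0.74 and 0.61), and Ddit3 most like Tbca (0.78 and 0.72), Cox17 (0.73 and 0.77) and AW112010 (0.73 and 0.70). Trib3 was most like the neutrophil granule genes Ngp (r = 0.67, rho = 0.62) and Fcnb (0.65 and 0.58) and the surface antigen gene Ly6c2 (0.65 and 0.54), at a level under 1 TPM in all libraries but 1.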

How the data were processed

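Bone marrow RNA of 24 mice was measured. Per the labels and the study's methods, cryopreserved cells were lysed with ISOGEN-LS, MGIEasy directional libraries were made by the authors from 200 ng of RNA (micrograms in the labels) and run on a DNBSEQ-G400 sequencer, and TPM were estimated with RSEM 1.3.1 after STAR 2.6.1 alignment to mm10 (GRCm38). These deposited TPM sum to 999999.52 to 1000001.06 per library. No counts were used, so depth and counting error are unknown, and whether counting used strand is not given in the sources used here.

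Groups came from the labels. Rows were named with GENCODE M21 (54723 of 54752 identifiers matched). Genes with a TPM above 1 in at least 1 library (12373) were tested on the log2(TPM + 1) scale in 1 limma 3.58.1 fit of group means to all 24 libraries (R 4.3.3), and other steps used Python 3.11.15 with pandas 2.3.3. The pseudocount makes fold changes of low genes smaller than their TPM ratios. The steps were tested on simulated data. The members and lists were chosen with earlier results of these data known. Beside the members and Nfe2l2, up to 4 genes per list and comparison could be named, those of smallest p whose mean was 5 TPM or more, and for likeness the 3 genes with the highest Pearson's r. The alternatives were another pseudocount, other filters, median-of-ratios, quantile and GC content and length scaling, removal of 5 small RNAs, fits of the compared groups alone, other thresholds, a block for the mouse number, and leaving out each library.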

Additional observations from a re-analysis of the deposited data

Results flagged for a closer look

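In 2 of 36 sets of 6 mice (9 genes in 4 groups), the highest mouse stood apart from the others by Dixon's test, where chance gives about 1 in 20. Trib3 was at 1.14 TPM in GC-WT mouse 5, with a gap of 0.67 of the range of the group. Without this mouse Trib3 does not pass the filter and has no test. Chac1 was at 2.2 TPM in FL-KO mouse 11, with a gap of 0.688 of the range.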

How the results depend on the processing

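Of the member values under the alternatives tried, 1059 kept their direction and their side of the threshold, 35 changed sign without passing in either setting, 41 fell short of the threshold, 18 came to pass it and 16 changed sign and passed in at least 1 of both settings. The cause of these changes was not tested. The count of 7 members called lower as DEGs was 1 for flight in WT mice and moved to 0 with median-of-ratios scaling, quantile normalization or removal of the GC content and length trend, to 6 with no minimum fold change, and to 0 to 2 with a mouse left out. For flight in Nrf2-KO mice it was 2 and moved to 0 with these scalings and without the 5 small RNAs, to 6 with no minimum fold change, and to 1 to 3 with a mouse left out. For Nrf2 KO it was 0 on the ground and in flight and moved to 2 and 3 with no minimum fold change. These 16 were all from negative to positive log2 fold changes. With median-of-ratios scaling they were Ddit3 (0.00010) and Chac1 (0.20) in FL-KO vs. GC-KO, Ppp1r15a in GC-KO vs. GC-WT (0.27) and Atf4 in FL-KO vs. FL-WT (0.23). With quantile normalization they were Ddit3 (0.025) and Chac1 (0.28) in FL-KO vs. GC-KO, and Atf4 (0.18) and Chac1 (0.0050) in FL-KO vs. FL-WT. With the GC content and length trend removed it was Chac1 (0.36) in FL-KO vs. GC-KO, Atf4 (0.24), Ddit3 (0.18), Ppp1r15a (0.45) and Chac1 (0.27) in GC-KO vs. GC-WT, and Atf4 (0.39), Ppp1r15a (0.48) and Chac1 (0.31) in FL-KO vs. FL-WT.

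Ground and flight mice share numbers, but the labels do not say what a number marks. Deviations of same-numbered mice correlated at -0.03 to 0.27, over 0.1 in 7 of 12 pairs, and 3 of 12 mice correlated best with their own number. These values have no reference rate beside them and do not settle whether the numbers mark pairs. The numbers were not taken as pairs because the labels do not explain them. With the replicate block by mouse number, the counts remained 1 for flight in WT mice, 2 for flight in Nrf2-KO mice and 0 for the interaction. The genotype comparisons share no numbers. Depth is unknown, which limits the low values of Trib3 and Chac1.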
